A study of Danio rerio with 6 samples.

Results

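Genes of the cell division cycle were followed across single wells of dissociated zebrafish pituitary, by age and by the kind of cell in the well. The set held 39 genes, 19 that act in DNA replication and 20 that act in mitosis. It was chosen by name, with no rule on measured values, but with earlier results of these data known. All 39 names were found among the 31325 genes of the 6 count tables, and 38 of them held at least 1 UMI (unique molecular identifier, the tag that marks 1 captured mRNA molecule) in the wells analysed. Only *dut*, which clears dUTP from the nucleotide pool, held none.

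A dividing cell copies its DNA in S phase and parts the copies in mitosis, and the transcripts that serve each step come and go with it. Origins of replication are opened by the MCM helicase, and the copying uses a sliding clamp, ligase and a supply of deoxynucleotides. Mitosis is driven by cyclin-dependent kinase and is carried out by condensins, spindle motors and the kinases of the checkpoint. The pituicytes of the neurohypophysis are the glia of the posterior pituitary, and red cell precursors of fish divide while they build haemoglobin.

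The fish were strain AB carrying Tg(pomca:EGFP), a reporter driven by the promoter of *pomca*, which corticotropes and melanotropes use. The groups were juveniles of 37 days post fertilization (dpf) and males of 5 months and of 7 months. Each fish, whatever its age, had received β-Ala-Lys-Nε-AMCA by injection 3 hours before dissection, 5 µl in juveniles and 10 µl in adults, at 4.6 mM. This dipeptide carries a fluorescent group. For each age 5 pituitaries were pooled, and the dissociated cells, after propidium iodide staining, were sorted to fill 2 plates of 384 wells for MARS-seq, which counts UMIs per gene and well. The plates of an age are therefore 1 pool, and their spread and p-values speak of plates, not of fish. The second 37 dpf plate was sequenced in another batch than the 4 adult plates, and no batch is listed for the first. Against 37 dpf, effects of age, of the injected volume and of the sequencing batch cannot be told apart, while 5 and 7 months shared a batch and a volume. No sex is given here for the juveniles.

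Wells with at least 400 UMIs were kept, 1389 of 2304. The 37 dpf plates gave 311 and 338 of these, the 5-month plates 257 and 174, and the 7-month plates 203 and 106. Their median depth fell from 2105 and 1894 UMIs on the 37 dpf plates to 1200 and 1085 at 5 months and 923 and 675.5 at 7 months. A gene with 3 UMIs, taken as the limit of detection, stood at 2.57 to 3.03 CPM (counts scaled to 1000000 UMIs) on the 37 dpf plates and at 6.83 to 36.6 CPM on the adult plates. Wells were grouped by lists of marker genes, none of them a cell cycle gene. The juvenile plates held 193 erythroid, 143 stromal, 54 cartilage, 53 keratinocyte, 44 macrophage and 11 pituicyte wells. They also held 20 wells with glial markers but no *cyp26b1*, 19 endothelial wells, 1 *wnk1b*-positive epithelial well and 111 wells of no group. Of the 20 wells with glial markers, 16 held *glula* and 15 *ptgdsb.2*, while 2 held *gfap* and 0 held *cyp19a1b*. Whether these wells are glia was not tested. Pituicyte wells, the glia of the labelled tissue, were 60 of the 5-month and 83 of the 7-month wells, and *cyp26b1*, their defining gene, was required of them. Erythroid, cartilage and keratinocyte wells were found on the 37 dpf plates only. Wells that met at least 2 marker lists numbered 124 and were given to the stronger list.

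Both classes were high at 37 dpf and low in adults. Replication genes took 25.8 and 22.9 of every 10000 UMIs on the 37 dpf plates, 2.94 and 1.11 at 5 months and 2.69 and 2.93 at 7 months. Mitosis genes took 14.1 and 17.9 per 10000 at 37 dpf, 0.524 and 0.0765 at 5 months, then 0.930 and 0.610 at 7 months. No adult plate reached a 37 dpf plate in either class. As means ± SD over 2 plates, the replication level was 24.4 ± 1.99 at 37 dpf, 2.02 ± 1.29 at 5 months and 2.81 ± 0.168 at 7 months, and the mitosis level was 15.9 ± 2.69, 0.300 ± 0.316 and 0.770 ± 0.226. With the UMIs of an age summed, the replication level at 37 dpf was 10.8 times that at 5 months (95% counting interval 9.17 to 12.7) and 8.78 times that at 7 months (7.03 to 11.1). The mitosis level was 45.1 times that at 5 months (30.5 to 69.9) and 19.2 times that at 7 months (12.9 to 30.0). The intervals cover counting error only. In sums over a plate, fewer dividing cells and less RNA per dividing cell cannot be told apart.

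**Figure D1:**
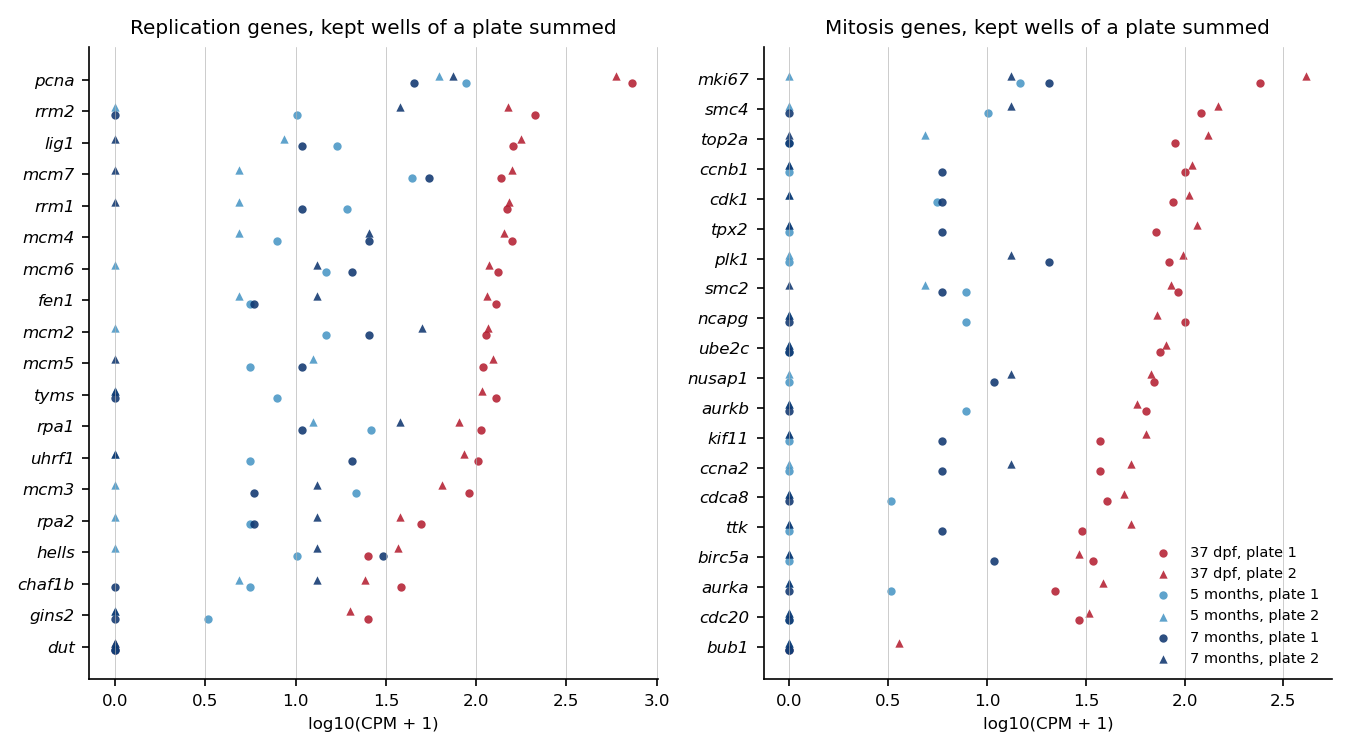
Level of each of the 39 cell cycle genes on the 6 plates, with replication genes on the left and mitosis genes on the right, ordered by UMIs. The horizontal axis is log10(CPM + 1) over the kept wells of a plate; a point is 1 plate, with colour for age and shape for plate number. The red 37 dpf points lie to the right for nearly every gene, and the gap to the blue adult points is wider for mitosis genes, 8 of which are at 0 on both 5-month plates among those tested.

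The erythroid wells were 29.7% of the kept wells at 37 dpf and held 62.4% of their UMIs, and they held 82.8% of the replication UMIs and 83.9% of the mitosis UMIs of that age. Of the erythroid wells, 49 had under 1.5% of their UMIs from erythroid marker genes, and whether some hold other cells was not tested. These 49 held 907 of the 4330 replication and 646 of the 2913 mitosis UMIs of the group. When wells were clustered by expression, 150 of the 193 erythroid wells fell in the cluster led by globin genes. Without the erythroid wells the replication level at 37 dpf was 13.9 and 8.35 per 10000 (11.1 ± 3.89), and the mitosis level was 6.37 and 7.45 (6.91 ± 0.764). These were still above all 4 adult plates. The erythroid share of a single gene's 37 dpf UMIs ran from 67.2% to 93.2% for replication genes, with a median of 86.7%, and from 75% to 100% for mitosis genes, with a median of 85.3%. The highest shares, apart from the 3 UMIs of *bub1*, were those of *mcm5* (93.2%), *uhrf1* (92.5%) and *ccnb1* (92.0%). The lowest were those of *chaf1b* (67.2%), *rrm2* (70.8%) and *rpa2* (72.5%).

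Counts summed per plate were tested between ages with edgeR's quasi-likelihood test, with adjusted p-values from the Benjamini-Hochberg method over 4411 genes and a threshold of 0.05. Of the 39 genes, 32 passed the filter on low counts, 16 of each class. At 5 months against 37 dpf all 32 were called lower, where the test called 50.6% of all genes and 26.3% as lower. At 7 months 31 of the 32 were called lower, against 48.7% of all genes called and 26.2% as lower. The filter keeps a gene that is high on the plates of any 1 age. The set's UMIs lay mostly on the 37 dpf plates, so these counts describe genes that had to be high there. The same limit holds for the lack of overlap between plates given below for single genes. Between 7 and 5 months, where the test called 2.22% of all genes, 0 of the 32 were called. Of these 32, 3 had an unadjusted p under 0.05, and DESeq2 called 0. The median log2 fold change of the replication genes tested was -3.62 at 5 months and -3.15 at 7 months. For mitosis genes, with those at 0 set to the bound that 3 UMIs give, it was -4.26 and -3.46, beside -0.06 and -0.17 over all genes tested. Scaling by library size alone moved the median of all genes to -0.22 at 5 months, and to 0.12 between 7 and 5 months, with the same counts of 32, 31 and 0 called.

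Among the genes of the replication fork, *pcna*, which encodes the clamp that holds DNA polymerase on its template, had the most UMIs. It stood at 729 and 598 CPM on the 37 dpf plates, 86.5 and 61.2 at 5 months and 44.0 and 73.2 at 7 months. The adult plates lay far below both 37 dpf plates, and *pcna* was the gene of the set found in the most adult wells, 47 of them. It fell by 2.97 ± 0.31 (SE) on the log2 scale at 5 months (adjusted p = 1.42e-05) and fell by 3.66 ± 0.37 at 7 months (adjusted p = 1.37e-05). *lig1*, the ligase that seals fragments of the lagging strand, was at 159 and 177 CPM at 37 dpf, 15.9 and 7.65 at 5 months, then 9.79 and 0 at 7 months, and fell by 3.55 ± 0.43 at 5 months. Its 2 UMIs at 7 months put 37 dpf at 24.2 times that age, with a counting interval of 6.64 to 200.2. *fen1*, the nuclease that trims those fragments, was at 128 and 114 CPM at 37 dpf, 4.55 and 3.82 at 5 months, then 4.89 and 12.2 at 7 months. With 3 and 2 adult UMIs, its 37 dpf level was 28.2 times (9.53 to 137) that at 5 months and 17.3 times (4.73 to 143) that at 7 months. The tests called all of these changes, with no overlap between juvenile and adult plates.

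The MCM helicase unwinds DNA at the fork as a ring of the subunits *mcm2* to *mcm7*. *mcm4* was at 156 and 142 CPM at 37 dpf, 6.83 and 3.82 at 5 months, then 24.5 and 24.4 at 7 months, changes of -4.51 ± 0.47 and -2.64 ± 0.44 on the log2 scale. *mcm5* was at 108 and 123 CPM, then 4.55 and 11.5 at 5 months, a change of -3.80 ± 0.53, and 9.79 and 0 at 7 months, where 2 UMIs give a ratio of 16.6 (4.55 to 138). *mcm6* was at 131 and 117 CPM, then 13.7 and 0, and 19.6 and 12.2, and fell by 3.70 ± 0.55 and fell by 2.86 ± 0.61. For these subunits no adult plate reached a juvenile plate. *mcm2* was at 112 and 116 CPM at 37 dpf, 13.7 and 0 at 5 months, then 24.5 and 48.8 at 7 months, and fell by 3.58 ± 0.56 and fell by 1.86 ± 0.55 (adjusted p = 0.0141 at 7 months). *mcm3* was at 89.8 and 63.5 CPM, then 20.5 and 0, and 4.89 and 12.2, a change of -2.45 ± 0.62 at 5 months and a ratio of 10.8 (2.95 to 90.1) from 2 UMIs at 7 months. *mcm7* was at 136 and 158 CPM, then 43.3 and 3.82, and 53.8 and 0, and fell by 2.28 ± 0.56 and fell by 2.03 ± 0.66. The adult UMIs of *mcm7* lay almost wholly on the first plate of each age, 19 and 11, against 1 and 0 on the second. The call for *mcm7* at 5 months was lost without the second 5-month plate (adjusted p = 0.0854), and those for *mcm2* and *mcm3* at 7 months without the first 7-month plate (adjusted p = 0.129 and 0.101). With DESeq2 *mcm7* was not called at 7 months (adjusted p = 0.0718). *gins2*, a part of the same helicase complex, held 46 UMIs at 37 dpf and 1 in adults and did not pass the filter.

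Of the genes that supply deoxynucleotides, *rrm1* and *rrm2* encode the subunits of ribonucleotide reductase and *tyms* the enzyme that makes thymidylate. *rrm2* was at 212 and 148 CPM at 37 dpf, 9.11 and 0 at 5 months, then 0 and 36.6 at 7 months. It fell by 4.79 ± 0.69 at 5 months, and its 3 UMIs at 7 months give a ratio of 17.0 (5.76 to 82.5). *rrm1* was at 147 and 151 CPM, then 18.2 and 3.82, and 9.79 and 0, a change of -3.39 ± 0.47 at 5 months and a ratio of 21.4 (5.87 to 177) from 2 UMIs at 7 months. *tyms* was at 127 and 107 CPM at 37 dpf and 6.83 and 0 at 5 months, a ratio of 27.2 (9.20 to 133) from 3 UMIs, and at 7 months it was at 0 on both plates, at least 11.1-fold lower by a limit of 3 UMIs over the age. Adult plates did not reach the juvenile plates for any of the 3, and DESeq2 did not call *rrm2* at 7 months (adjusted p = 0.166).

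*rpa1* and *rpa2* encode subunits of the protein that coats single-stranded DNA. *rpa1* was at 105 and 79.8 CPM at 37 dpf, 25.04 and 11.5 at 5 months, then 9.79 and 36.6 at 7 months, and fell by 2.06 ± 0.46 and fell by 2.39 ± 0.60. *rpa2* was at 48.4 and 36.9 CPM, then 4.55 and 0, and 4.89 and 12.2, with ratios of 14.8 (3.98 to 124) and 6.04 (1.63 to 50.6) from 2 UMIs at each adult age. At 7 months both calls were lost without the first 7-month plate (adjusted p = 0.0972 for *rpa1* and 0.189 for *rpa2*), and that of *rpa2* also without the second 37 dpf plate (0.0739) and with DESeq2 (0.0954). Genes that rebuild chromatin behind the fork were less alike. *uhrf1*, which reads hemimethylated DNA, was at 100.9 and 84.9 CPM, then 4.55 and 0, a ratio of 32.3 (8.83 to 269), and 19.6 and 0, a change of -2.78 ± 0.67. *hells*, a chromatin remodeller, was at 24.2 and 36.0 CPM at 37 dpf, 9.11 and 0 at 5 months, then 29.4 and 12.2 at 7 months, so that the 7-month and 37 dpf plates overlapped. It was called at 5 months (-2.24 ± 0.75, adjusted p = 0.0246), but with DESeq2 (adjusted p = 0.0833) and without the second 5-month plate (0.157) it was not, and at 7 months it was at -0.37 ± 0.70 (adjusted p = 0.682). *chaf1b*, which hands histones to new DNA, held 64 UMIs at 37 dpf and 4 in adults and did not pass the filter.

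Among mitosis genes *mki67*, which coats mitotic chromosomes and is the standard mark of cycling cells, had the most UMIs. It was at 238 and 411 CPM at 37 dpf, 13.7 and 0 at 5 months, then 19.6 and 12.2 at 7 months, and fell by 5.09 ± 0.58 (adjusted p = 2.32e-05) and fell by 4.25 ± 0.62 (adjusted p = 0.000194). *top2a*, the enzyme that untangles sister chromatids, was at 88.8 and 130.4 CPM at 37 dpf, 0 and 3.82 at 5 months and 0 on both 7-month plates. Its 1 adult UMI gives a ratio of 78.0 (13.9 to 3093) at 5 months, and at 7 months it was at least 10.6-fold lower. The condensin subunits *smc2*, *smc4* and *ncapg*, which compact mitotic chromosomes, went the same way. *smc4* was at 120.1 and 146 CPM, then 9.11 and 0, a change of -4.36 ± 0.61, and 0 and 12.2, a ratio of 38.4 (6.83 to 1520) from 1 UMI. *smc2* was at 91.8 and 84.1 CPM, then 6.83 and 3.82, a change of -3.74 ± 0.55, and 4.89 and 0, a ratio of 25.1 (4.45 to 996) from 1 UMI. *ncapg* was at 98.9 and 71.2 CPM, then 6.83 and 0, a ratio of 19.6 (6.60 to 95.9), and 0 and 0, at least 8.01-fold lower. No adult plate overlapped a juvenile plate for these genes.

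The kinases and cyclins that start mitosis were mostly at 0 at 5 months. *cdk1*, the kinase itself, was at 85.8 and 104 CPM at 37 dpf, 4.55 and 0 at 5 months, then 4.89 and 0 at 7 months, ratios of 33.5 (9.15 to 278) and 27.4 (4.85 to 1085) from 2 and 1 UMIs. Its partner *ccnb1* was at 98.9 and 108 CPM, at 0 on both 5-month plates, at least 24.3-fold lower, and at 4.89 and 0 at 7 months, a ratio of 29.7 (5.28 to 1180) from 1 UMI. *ccna2*, the cyclin of S phase and early mitosis, was at 36.3 and 52.3 CPM, then at 0, at least 10.51-fold lower, then at 4.89 and 12.2, a ratio of 6.44 (1.74 to 53.9) from 2 UMIs. *plk1*, a kinase of mitotic entry and the spindle poles, was at 82.8 and 96.9 CPM, then at 0, at least 21.1-fold lower, then at 19.6 and 12.2, a change of -2.40 ± 0.57. Its 5 UMIs at 7 months came from 2 wells. *aurkb*, the Aurora kinase of the centromere, was at 62.6 and 56.6 CPM, then 6.83 and 0, a ratio of 13.9 (4.64 to 68.1), and 0 and 0, at least 5.66-fold lower. *ttk*, the checkpoint kinase, was at 29.3 and 52.3 CPM, then at 0, at least 9.75-fold lower, then at 4.89 and 0, a ratio of 12.0 (2.09 to 477) from 1 UMI. *aurka*, the Aurora kinase of the spindle poles, held 65 UMIs at 37 dpf and 1 in adults, and *bub1*, another checkpoint kinase, held 3 UMIs, all in erythroid wells. Neither passed the filter. The call for *ccna2* at 7 months (adjusted p = 0.0185) was lost with DESeq2 (0.0989), with at least 1000 UMIs per well (0.0927) and without the first 37 dpf plate (0.0518) or the first 7-month plate (0.167), and that for *ttk* with DESeq2 (0.0739) and without the first 7-month plate (0.0705).

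Genes of the spindle and of exit from mitosis completed the class. *tpx2*, which helps microtubules form around chromosomes, was at 70.6 and 115 CPM at 37 dpf, at 0 at 5 months, at least 22.1-fold lower, and at 4.89 and 0 at 7 months, a ratio of 27.1 (4.81 to 1075) from 1 UMI. *nusap1*, which bundles spindle microtubules, was at 68.6 and 66.9 CPM, then at 0, at least 15.8-fold lower, then at 9.79 and 12.2, a ratio of 6.46 (2.17 to 31.7) from 3 UMIs. *kif11*, the motor that pushes the poles apart, was at 36.3 and 62.6 CPM, then at 0, at least 11.8-fold lower, then at 4.89 and 0, a ratio of 14.5 (2.54 to 577) from 1 UMI. Juvenile and adult plates did not overlap for any of these, though the call for *nusap1* at 7 months was lost without the first 7-month plate (adjusted p = 0.0549). *ube2c*, which tags mitotic cyclins for destruction, was at 73.7 and 79.8 CPM at 37 dpf and at 0 on all 4 adult plates, at least 18.0-fold lower at 5 months and at least 7.35-fold lower at 7 months. *cdc20*, the activator of that step, held 65 UMIs at 37 dpf and 0 in adults and did not pass the filter. Of the chromosomal passenger genes, *cdca8* was at 39.4 and 48.0 CPM, then 2.28 and 0, a ratio of 30.9 (5.41 to 1232) from 1 UMI, and 0 and 0, at least 4.20-fold lower. *birc5a* held 66 UMIs at 37 dpf and 2 in adults and did not pass the filter.

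The same test was run without the erythroid wells. The wells left were not the same kinds of cell at each age. Cartilage and keratinocyte wells were on the 37 dpf plates only, and hormone cell wells on adult plates only. Whether the same cells changed with age was therefore not tested here. Of the 39 genes, 18 passed the filter, 10 replication and 8 mitosis genes. At 5 months 14 of them were called lower, 6 replication and all 8 mitosis genes, where the test called 21.1% of 4024 genes and 10.2% as lower. At 7 months 13 were called lower, 6 replication and 7 mitosis genes, where it called 22.3% and 10.9% as lower. The filter again keeps a gene that is high at any 1 age. In these wells too the set's UMIs lay mostly at 37 dpf, so the counts describe genes that mostly had to be high there. Between 7 and 5 months 0 of 18 were called, where the test called 2.51%. Of these 18, 1 had an unadjusted p under 0.05, and DESeq2 also called 0. *pcna* fell by 1.97 ± 0.39 at 5 months (adjusted p = 0.00168) and fell by 2.67 ± 0.46 at 7 months (0.000747), and *mki67* fell by 3.59 ± 0.69 (0.00138) and fell by 2.77 ± 0.74 (0.0145). *rrm2* fell by 4.25 ± 0.86 at 5 months. *rpa1* and the MCM genes tested, *mcm2*, *mcm6* and *mcm7*, were not called at either age; *mcm3*, *mcm4* and *mcm5* did not pass the filter. *mcm7* was at -0.48 ± 0.76 and -0.26 ± 0.86, *mcm2* at -1.67 ± 0.82 and 0.05 ± 0.80, *mcm6* at -1.91 ± 0.76 and -1.09 ± 0.83, and *rpa1* at -1.07 ± 0.65 and -1.37 ± 0.83, with adjusted p-values of 0.0908 to 0.979. *plk1* was not called at 7 months (-1.04 ± 0.77, adjusted p = 0.354).

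Fewer genes of the set were called when any plate of either age compared was left out, at 5 and at 7 months. Each such fit left 1 plate for an age, so the fall is not read as a result about these genes. With all plates, DESeq2 called 4 at 5 months and 3 at 7 months. The share of all genes that it called is not given here. Erythroid marker genes made up 6.57% of UMIs in erythroid wells and 0.262% to 0.876% in the other 37 dpf groups, and 0.0029% or less in adult groups, and the part of this RNA in the age comparisons was not tested. At the ratio of cell cycle to marker UMIs in erythroid wells, that RNA would give 2.03 replication and 1.36 mitosis UMIs per 10000 in cartilage wells, where 13.9 and 3.81 were measured. In stromal wells it would give 3.32 and 2.23, where 7.38 and 5.02 were measured, in macrophage wells 1.33 and 0.897, where 9.46 and 5.99 were measured, and in keratinocyte wells 1.28 and 0.863, where 5.21 and 4.13 were measured.

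**Figure D2:**
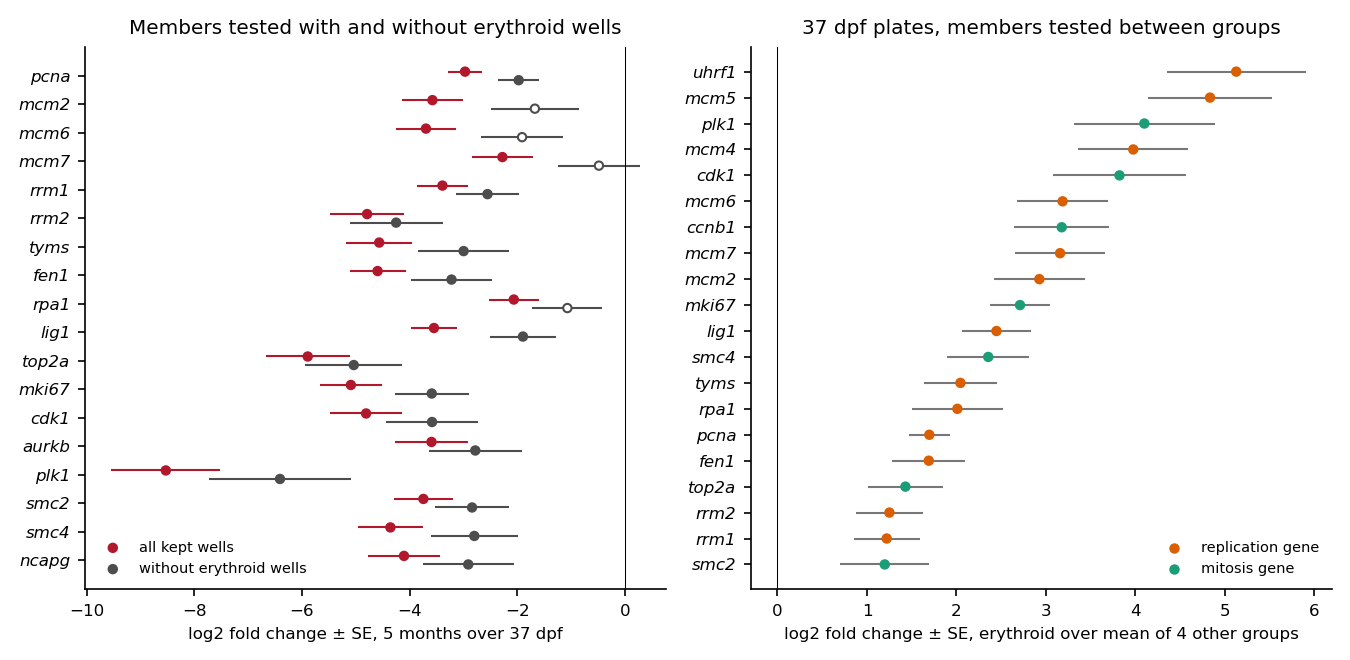
Log2 fold changes with SE from edgeR. Left, 5 months over 37 dpf for the 18 genes tested both with all kept wells (red) and without erythroid wells (grey); filled points passed an adjusted p of 0.05, and the open points are *mcm2*, *mcm6*, *mcm7* and *rpa1* without erythroid wells. Right, erythroid wells over the mean of the cartilage, keratinocyte, stromal and macrophage wells at 37 dpf for the 20 genes tested, all above 0. The points of *uhrf1*, *mcm5*, *plk1*, *mcm4* and *cdk1*, for which a group had no UMI, depend on the prior count.

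Of the 5 largest marker groups at 37 dpf the erythroid wells stood highest in both classes. Their replication level was 33.9 and 30.8 per 10000 on the plates and their mitosis level 19.3 and 23.5. Cartilage wells were at 18.3 and 8.92 for replication and 5.33 and 2.12 for mitosis, macrophage wells at 8.82 and 9.85 and at 4.41 and 6.97, stromal wells at 7.19 and 7.56 and at 5.44 and 4.60, and keratinocyte wells at 6.31 and 4.098 and at 2.85 and 5.43. None of these 4 reached the erythroid level on either plate. Below it, the order in replication was cartilage, macrophage, stromal and keratinocyte, and neighbours overlapped between plates for cartilage and macrophage, while macrophage and stromal, and stromal and keratinocyte wells, stayed apart by less than the counting interval of a plate. In mitosis the 4 lower groups overlapped with one another. The exception to the order was small. The 12 glial wells without *cyp26b1* on the first plate were at 38.8 (29.3 to 50.4) for replication and 20.1 (13.5 to 28.9) for mitosis, as high as erythroid wells, but the 8 on the second plate were at 9.55 and 0. Wells of no group were at 24.9 and 12.4 for replication and 9.80 and 14.4 for mitosis. With both plates summed, the 19 endothelial wells were at 3.04 for replication and 6.08 for mitosis from 6 and 12 UMIs.

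**Figure D3:**
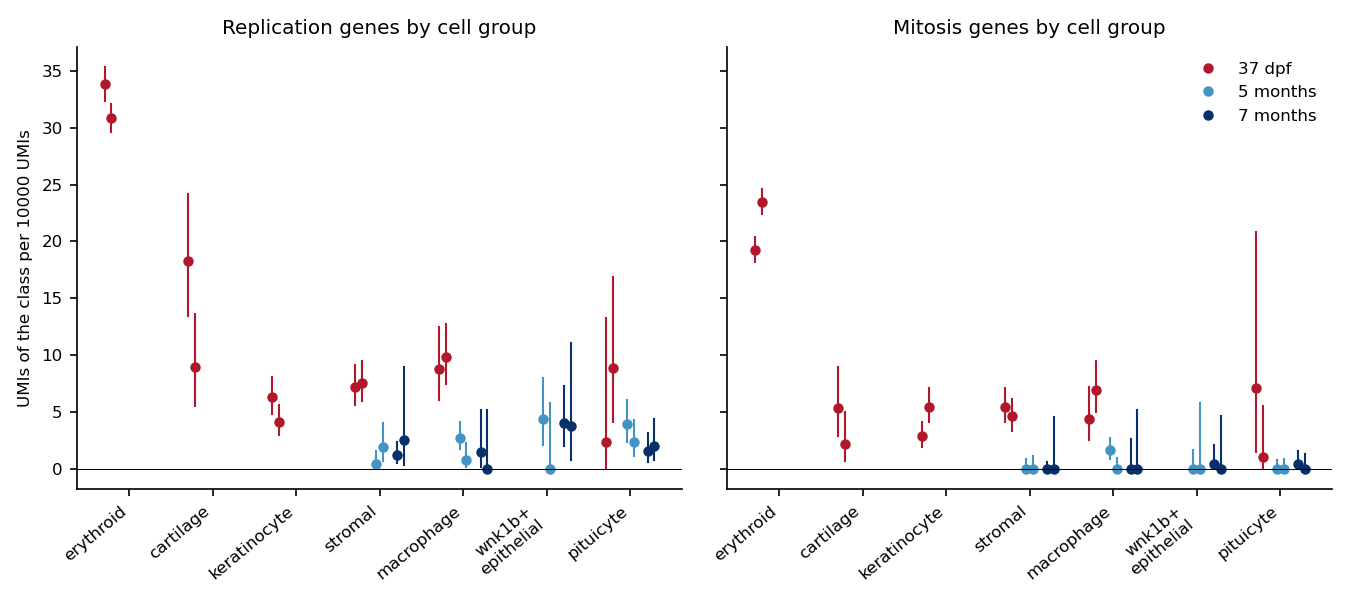
Replication (left) and mitosis (right) UMIs per 10000 UMIs in erythroid, cartilage, keratinocyte, stromal, macrophage, *wnk1b*-positive epithelial and pituicyte wells, where a plate held at least 4 wells of the group. Glial wells without *cyp26b1*, 38.8 and 9.55 for replication, and wells of no group are not drawn. A point is 1 plate, coloured by age, and the bar is its exact 95% Poisson interval. Of the 7 groups drawn, erythroid wells lie highest at 33.9 and 30.8 for replication, and the adult points lie near 0 for mitosis, the highest being 1.60 in macrophage wells of the first 5-month plate.

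Erythroid wells were tested against the mean of the 4 other groups with at least 10 wells on both 37 dpf plates, with plate as a term. Of the 39 genes 20 passed the filter, 13 replication and 7 mitosis genes, and all 20 were called higher, where the test called 56.2% of 2015 genes and 29.8% as higher. For the 15 genes with at least 1 UMI in each of the 4 groups the change ran from 1.199 to 3.19, beside a median of -0.35 over all genes. For *uhrf1*, *mcm5*, *plk1*, *mcm4* and *cdk1* a group had no UMI, so that the fitted change depends on the prior count and is not given. Again the filter favours genes that are high in erythroid wells, which hold most UMIs. *uhrf1* was at 159 and 119 CPM in erythroid wells and at 0 on both plates in cartilage, at 0 and 17.0 in macrophage, at 10.3 and 0 in stromal and at 0 and 10.3 in keratinocyte wells, and was called with an adjusted p of 4.28e-06. *mcm5* was at 163 and 181 CPM in erythroid wells and at most 55.1 on any plate of another group. *plk1* was at 108 and 132 CPM against at most 34.0, *mcm4* at 220.2 and 205 against at most 114, and *cdk1* at 117 and 131 against at most 41.1. For each of these genes both erythroid plates lay above every plate of those 4 groups. They were set apart here because a group had no UMI, and they passed a filter that favours erythroid wells. Their lack of overlap is therefore not separate evidence. How many of all genes tested lay apart in this way was not counted.

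Smaller differences were found for the genes of nucleotide supply and for *top2a* and *smc2*. *rrm2* was at 219 and 188 CPM in erythroid wells but at 266 on the first plate of cartilage wells, so that these groups overlapped (1.25 ± 0.37, adjusted p = 0.00536). *rrm1* was at 180 and 187 CPM, with 220.4 on the first plate of macrophage wells (1.22 ± 0.37). *top2a* changed by 1.43 ± 0.42 and *smc2* by 1.199 ± 0.49. *pcna*, at 911 and 772 CPM in erythroid wells, was at 723 and 212 in cartilage, 386 and 340 in macrophage, 390.3 and 235 in stromal and 122 and 71.7 in keratinocyte wells, a change of 1.70 ± 0.23 (adjusted p = 5.15e-07). *mki67* was at 346 and 537 CPM in erythroid wells and at most 187 elsewhere (2.71 ± 0.34, adjusted p = 1.61e-07). DESeq2 called 15 of the 20, without *rrm1*, *rrm2*, *top2a*, *plk1* and *smc2* (adjusted p = 0.063 to 0.295). The share of all genes called by DESeq2 in this comparison is not given here.

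The other groups gave few calls when each was set against the mean of the rest. In cartilage wells 0 of 20 genes were called (18.4% of all genes called), 0 had an unadjusted p under 0.05, and DESeq2 called 0. In macrophage wells 0 of 20 were called (22.0% of all genes), 1 had an unadjusted p under 0.05, and DESeq2 called 0. In keratinocyte wells, where 24.3% of all genes were called, *pcna* alone was called, lower by -2.25 ± 0.36 (adjusted p = 1.42e-05), and it was at -2.00 ± 0.43 (adjusted p = 0.000833) without the erythroid wells, where 32.1% were called. The genes called lower in keratinocyte wells were 8.09% of all. In the same fit without erythroid wells *pcna* was not called in cartilage (0.97, 16.1% of genes called), stromal (0.28, 18.4%) or macrophage wells (0.75, 26.4%). In stromal wells, where 25.3% of genes were called and 2.63% as lower, *mcm7* alone was called, at 0 and 10.2 CPM against 185 and 229 in erythroid wells (-3.27 ± 1.22, adjusted p = 0.0488). Both stromal values of *mcm7* lay below the limit of 3 UMIs, which was 0.308 and 0.307 per 10000 in stromal wells of these plates. The *mcm7* call was lost with DESeq2, with clusters in place of marker groups, with no filter and with at least 1000 UMIs per well.

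Of 193 erythroid wells, 99.0% held a replication UMI and 94.3% a mitosis UMI, at a median depth of 6361 UMIs. After each well was thinned to 400 UMIs these shares were 69.4% and 41.5%, against 23.7% and 14.9% for the 456 other 37 dpf wells, whose unthinned shares at a median of 1227 UMIs were 45.0% and 30.9%. The median erythroid well had 30.2 replication and 16.7 mitosis UMIs per 10000, with quartiles of 22.8 to 43.4 and 7.74 to 27.6 and highest wells at 91.6 and 75.8. The 5 richest wells held 8.61% of the group's replication UMIs and 12.1% of its mitosis UMIs. At least 2 UMIs of each class were found in 172 of the 193 wells.

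A replication UMI was found in 35.2% of cartilage, 69.8% of keratinocyte, 33.6% of stromal and 56.8% of macrophage wells, and in 24.1%, 18.9%, 16.1% and 25% of them after thinning. The 5 richest wells held 69.6% of replication and 79.0% of mitosis UMIs of the 54 cartilage wells, 64.4% and 73.7% of the 44 macrophage wells, 45.1% and 46.9% of the 143 stromal wells and 38.2% and 71.6% of the 53 keratinocyte wells. These shares are of groups that differ in number of wells and depth, so they are not compared with the erythroid ones. The median well of each of these groups held no mitosis UMI. Without those 5 wells the levels were 5.01 and 0.912 per 10000 in cartilage, 4.17 and 1.92 in macrophage, 4.29 and 2.85 in stromal and 3.62 and 1.35 in keratinocyte wells. At least 2 UMIs of each class were found in 3 cartilage, 6 macrophage, 15 stromal and 8 keratinocyte wells.

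**Figure D4:**
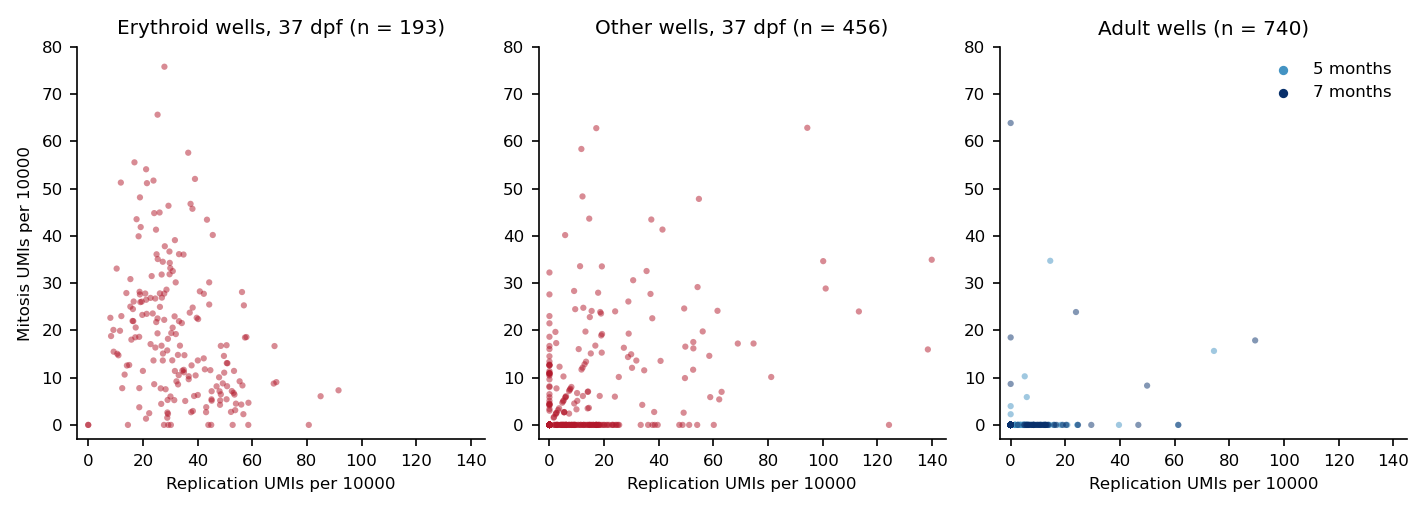
Replication (horizontal) and mitosis (vertical) UMIs per 10000 UMIs of single wells, for erythroid wells at 37 dpf (left, n = 193), other wells at 37 dpf (middle, n = 456) and adult wells (right, n = 740). Erythroid wells fill an area away from 0 with a median of 30.2 and 16.7, while most other wells lie at 0 or along an axis and the highest adult well, at 7 months, has mitosis UMIs but no replication UMI.

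Within the erythroid wells the classes tended to part. The Spearman correlation of replication and mitosis level over wells was -0.36 (n = 193), -0.26 on the first plate (n = 90) and -0.43 on the second (n = 103). This is a description over wells that share a plate and a total. Mitosis genes made under 20% of the cell cycle UMIs in 58 wells, 20 to 50% in 66, 50 to 80% in 68 and more in 1. The share over the group was 40.2%, beside 44.3% in keratinocyte, 40.5% in stromal and 38.8% in macrophage wells and 21.6% (13.5 to 31.7, exact binomial interval) in cartilage wells. The 49 erythroid wells with the least erythroid marker RNA, under 1.5% of their UMIs, were at 27.8 for replication and 19.8 for mitosis. They had joined the group by a few UMIs of erythroid genes that are not globins, whatever their depth. Erythroid wells with 1.5 to 5% were at 32.9 and 18.0, those with 5 to 10% at 31.9 and 23.9 and those with 10% or more at 36.0 and 24.8. On the first plate replication was as high in wells with 5 to 10% (37.3) as in those with 10% or more (37.1).

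Adult wells held 158 replication UMIs at 5 months and 79 at 7 months, but 25 and 24 mitosis UMIs. Every replication gene found at 37 dpf, 18 in all, had at least 1 adult UMI, and 17 of the 20 mitosis genes did, the exceptions being *bub1*, *cdc20* and *ube2c*. A replication UMI was found in 17.4% of wells at 5 months and 14.9% at 7 months, and a mitosis UMI in 1.39% and 1.94%, at median depths that fell with age as given above, against 61.0% and 49.8% at 37 dpf. Thinned to 400 UMIs per well, the replication shares in order of age were 37.3%, 4.87% and 7.12%, and the mitosis shares 22.8%, 0.464% and 1.29%. Free RNA was gauged in wells under 100 UMIs, where 1 replication UMI in 772 was found at 37 dpf, 0 in 2604 at 5 months and 0 in 4680 at 7 months, and 0, 1 and 0 mitosis UMIs. A count of 0 there allows up to 11.5 replication UMIs per 10000 at 5 months and 6.41 at 7 months, above the adult levels, so free RNA at those levels was not detectable at this depth.

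Among adult pituicyte wells, 30 replication UMIs and 0 mitosis UMIs of 94469 were found at 5 months, and 13 and 2 of 75483 at 7 months. The replication level was 3.18 per 10000 (2.14 to 4.53) and 1.72 (0.917 to 2.95). At 5 months a count of 0 allows a mitosis level of up to 0.318 by the limit of 3 UMIs. By the exact Poisson interval it allows up to 0.3905. *pcna* gave 11 of the 30 UMIs, in 6 wells, and the 5 richest wells gave 66.7% of them. A single well held 12 of the 30, at 61.3 per 10000, and only 2 of the 60 wells held at least 2 replication UMIs. The 5-month level thus rests largely on these wells, and its interval covers counting error only. The 2 mitosis UMIs at 7 months were of *mki67* in 1 well. At 37 dpf the 11 pituicyte wells held 10 replication UMIs, 1 and 9 on the plates, and 4 mitosis UMIs, 3 and 1, of 14319. Their levels were 6.98 (3.35 to 12.8) and 2.79 (0.761 to 7.15). These intervals overlap the adult ones for replication at 5 months and for mitosis at 7 months. Of the pituicyte list, *cyp19a1b* was in 1 of these 11 wells, against 56 of 60 at 5 months and 72 of 83 at 7 months. *fabp7a* was in 7, 35 and 35 of them. Whether the juvenile and adult wells hold the same kind of cell was not tested. No gene of the set passed the filter between pituicyte wells of 7 and 5 months, or between adult pituicyte and stromal wells, where the tests called 0.450% and 44.8% of genes. The adult *wnk1b*-positive epithelial wells held 10 and 14 replication UMIs in 18 and 29 wells and 0 and 1 mitosis UMIs. *hells* gave 6 of the 14 at 7 months, in 4 wells. The 1 such well at 37 dpf, on the second plate, held 7 replication and 9 mitosis UMIs of 3766, levels of 18.6 and 23.9 per 10000.

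In adult stromal wells 8 replication UMIs were found at 5 months in 63 wells and 10 at 7 months in 78, with 0 mitosis UMIs at either age. This allows up to 0.384 and 0.397 per 10000 by the limit of 3 UMIs, and up to 0.472 and 0.488 by the exact interval. The 37 dpf stromal wells stood at 5.02. Adult macrophage wells held 25 replication and 13 mitosis UMIs at 5 months in 34 wells, levels of 2.07 and 1.08, and 2 and 0 at 7 months in 12 wells. Between ages within a group *pcna* was the only gene of the set that passed the filter. In macrophage wells it was at 386 and 340 CPM at 37 dpf and 61.4 and 50.7 at 5 months, with no overlap (-2.47 ± 0.52, adjusted p = 0.0302, 7.02% of 584 genes called and 4.11% as lower). In stromal wells it was at 390.3 and 235 CPM at 37 dpf, 21.8 and 93.0 at 5 months (-2.31 ± 0.89, adjusted p = 0.0476, 20.9% of genes called and 9.36% as lower) and 29.6 and 0 at 7 months (-3.21 ± 1.07, adjusted p = 0.016, 24.8% called and 8.09% as lower). The adult stromal values rest on 4 *pcna* UMIs at 5 months and 2 at 7 months. Between 7 and 5 months *pcna* was at -0.90 in stromal wells (adjusted p = 0.919, 2.70% called). DESeq2 called none of these 3 changes. The macrophage call was lost without either 37 dpf plate and without the first 5-month plate. The 5-month stromal call was lost without either 37 dpf plate, the first 5-month plate or the first 7-month plate, and the 7-month call without the first 37 dpf or first 7-month plate.

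Most adult mitosis UMIs came from 4 wells, which held at least 4 each, 20 of the 25 UMIs at 5 months and 19 of the 24 at 7 months. A well on the first 7-month plate held 15 mitosis UMIs of 10 genes and 0 replication UMIs, 4 of them *plk1* and 2 each *mki67* and *nusap1*. A macrophage well of the first 5-month plate held 12 mitosis UMIs of 7 genes and 5 replication UMIs, with 52 UMIs of the macrophage gene *cd74a*. Another, on the same plate, held 8 mitosis and 38 replication UMIs of 15 replication genes, 12 of them *pcna*, and carried 23 UMIs of *cyp19a1b* and 5 of *sox2*, both on the pituicyte list, 6 of *wnk1b*, 4 of the epithelial gene *epcam* and 9 of the hormone subunit gene *cga*. The last, on the second 7-month plate, held 4 of each class. All but the macrophage well belonged to no marker group, and each carried *epcam* and *icn* beside genes of the pituicyte list, *cyp19a1b* in the well of the first 7-month plate and *vim* and *her4.1* in that of the second. Without the 4 wells the mitosis level was 0.0697 and 0.0765 at 5 months and 0.198 and 0.125 at 7 months.

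Other genes of the cycle, listed by role, were taken from the same fits. Of 41 further replication genes 20 were tested between ages. At 5 months 16 of them were lower and at 7 months 17, and 0 were higher. Here too the filter keeps a gene that is high at any 1 age, and most UMIs of these genes lay at 37 dpf. The counts therefore describe genes that mostly had to be high there. *chaf1a*, a histone chaperone of replication, was at 130.2 and 116 CPM at 37 dpf, 11.4 and 11.5 at 5 months, then 4.89 and 12.2 at 7 months (-3.24 ± 0.43 at 5 months). *dnmt1*, which copies DNA methylation, was at -2.40 ± 0.48 and -2.77 ± 0.63, and *rfc5*, a clamp loader, at -3.22 ± 0.65 and -2.40 ± 0.72, all called. Of 45 further mitosis genes 21 were tested and 20 were lower at both ages, a share read against the same 26.3% and 26.2% of all genes, among them the chromatin proteins *hmgb2a* (-3.13 ± 0.30 and -2.92 ± 0.33), *hmgb2b* (-2.59 ± 0.33 and -1.14 ± 0.32) and the histone *h2afx* (-3.28 ± 0.45 at 5 months, 1 UMI at 7 months). Without erythroid wells 6 further replication genes were tested, and 3 were lower at 5 months and 1 at 7 months. Of 5 further mitosis genes tested, 3 and 2 were lower, where 10.2% and 10.9% of all genes were. *dnmt1* was then not called at either age, nor were *rfc5* and *hmgb2b* at 7 months. In erythroid wells 4 of 5 replication and 5 of 6 mitosis genes of these lists were called higher, where the test called 29.8% of all genes higher.

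Cyclins, kinases and brakes of G1, the phase before replication, did not move as a block. Of 27 listed, 10 were tested; 5 were higher and 2 lower at 5 months, 6 higher and 1 lower at 7 months, where 24.3% and 22.6% of all genes were called higher. *btg2*, an antiproliferative gene that is also induced early by stimuli, was at 662 and 702 CPM at 37 dpf, 1885 and 1947 at 5 months, then 4634 and 5259 at 7 months, with no overlap between ages. It was higher by 1.68 ± 0.22 and 2.80 ± 0.23, and by 1.12 ± 0.22 between 7 and 5 months (adjusted p = 0.0226), where 1.02% of genes were called higher. Without erythroid wells its change at 5 months was 0.64 ± 0.24 (adjusted p = 0.0784) and at 7 months 1.74 ± 0.25 (adjusted p = 0.000155). The stress gene *gadd45ba* was at 186 and 154 CPM at 37 dpf, 861 and 883 at 5 months, then 1488 and 1464 at 7 months, and *btg1*, a relative of *btg2*, was higher by 1.12 ± 0.27 and 1.35 ± 0.28. *ccnd1*, the cyclin that carries cells out of G1, was at 159 and 168 CPM, then 29.6 and 11.5, and 53.8 and 109.8, a change of -2.71 ± 0.41 and -1.21 ± 0.41. Without erythroid wells it was not called at either age, and at 7 months its sign turned (-0.91 ± 0.55 and 0.60 ± 0.54, adjusted p = 0.264 and 0.461). *btg1* was not called without them either. Of 10 genes of this list tested without erythroid wells, 1 was higher and 1 lower at 5 months. At 7 months 2 were higher and 0 lower. The test called 11.0% and 11.4% of all genes higher at these ages. In erythroid wells *ccnd1* was the 1 gene of 8 tested that was higher (2.35 ± 0.45), and 7 were lower, where 26.4% of all genes were, *btg2* by -3.31 ± 0.19 and *gadd45ba* by -3.03 ± 0.38.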

How the data were processed

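The authors deposited raw UMI counts per gene and well for 6 MARS-seq plates of 384 wells, with no normalization. The submitters' processing notes name bcl2fastq 2.15.0.4, Seurat 3.1.5 and danRer10; the aligner and annotation are not given in the sources used here. Per the labels' protocols, sorted cells were barcoded in the plate and sequenced on a NextSeq instrument. The 92 spike-in names were left out. The minimum per well was 400 UMIs; a maximum of 30% of UMIs from genes named mt- left out 1 more well. No well name was shared between plates, and no doublet caller was run.

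The genes, marker lists, grouping rules and tests were chosen with earlier results of these data known, and the marker thresholds after the wells had been seen. A well joined the list whose share of its UMIs exceeded its threshold the most, with at least 3 markers. For erythroid wells this was replaced by at least 3 UMIs of at least 2 of 7 erythroid genes that are not globins, with no minimum share; in addition *wnk1b* wells needed that gene and pituicyte wells *cyp26b1*. Leiden clusters (scanpy 1.11.5, leidenalg 0.10.2) were the alternative. Left out of the clustering were the 39 genes, the other cell cycle genes listed and, among others, genes with mitochondrial or ribosomal protein names.

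Counts were summed per plate or per plate and group for the quasi-likelihood test of edgeR 4.0.16 in R 4.3.3 (filterByExpr, TMM scaling, Benjamini-Hochberg threshold 0.05), all 6 plates in 1 fit, groups with plate as a term. Standard errors were taken from the fold change and its F statistic. DESeq2 1.42.0 was an alternative. Levels have exact Poisson and shares exact binomial 95% intervals; both, and the limit of 3 counts, cover counting error only. Simulated counts were also passed through the edgeR test, with changes in genes above a minimum count only and no plate term between groups. The outcome is not given here, and it does not speak for genes near 0 UMIs or for the fit with plate as a term. Values in every plate are given for genes called in a test and the most counted genes of each class, and up to 3 called genes of each other list.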

Additional observations from a re-analysis of the deposited data

Results flagged for a closer look

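Wells of 200 to under 400 UMIs, which no comparison above used, held cell cycle UMIs above the limit that a count of 0 allows. At 37 dpf 88 such wells had 23 replication and 8 mitosis UMIs of 26091, levels of 8.82 (95% counting interval 5.59 to 13.2) and 3.07 (1.32 to 6.04) per 10000, against a limit of 1.15. At 5 months 128 such wells had 5 replication UMIs of 37347, a level of 1.34 (0.435 to 3.12) against a limit of 0.803, and 1 mitosis UMI. At 7 months 107 such wells held 1 replication UMI.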

How the results depend on the processing

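No paired analysis was possible between ages because each age was a separate pool of fish, so that no plate has a partner at another age. The labels also give no replicate numbers. Between groups the fit with no replicate block gave the same counts of called genes as with plate as the block, 20, 0, 1, 1 and 0. Counts of cell cycle genes called moved as follows. With all wells, 32 at 5 months and 31 at 7 months became 14 and 13 of 18 tested without erythroid wells. They became 4 and 4 with wells thinned to 400 UMIs, where only 4 of the 32 genes still passed the filter and all 4 kept their call. A change of count thus also reflects how many genes were tested, which rises with no filter. Without erythroid wells, 14 and 13 became 4 and 3 with DESeq2, and the first 23 with no filter. The erythroid count of 20 became 36 with no filter. The keratinocyte count of 1 became 2 with clusters and with at least 1000 UMIs per well. The stromal count of 1 between groups became 0 with clusters, DESeq2, no filter and 1000 UMIs. Within groups, the count of 1 became 0 with DESeq2 and with no filter in macrophage wells and in stromal wells at both adult ages, and in stromal wells at 5 months also with clusters and 1000 UMIs. *mcm2* at 7 months reversed from -1.86 to 0.050 without erythroid wells. The causes were not tested. The shares of all genes called with DESeq2, no filter, clusters, thinning or 1000 UMIs are not given here. The changed counts are therefore not read as results about the set.

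Without single plates the counts ranged from 28 to 37 and 24 to 35 with all wells, 5 to 18 and 2 to 13 without erythroid wells, and 0 to 1 in macrophage wells and in stromal wells against 37 dpf. They were 0 to 0 for 7 against 5 months, in pituicyte wells and between adult groups. A fit without a plate of an age compared left 1 plate for that age, and the genes that passed the filter could change. These ranges are therefore not read as results about the set. Levels per single plate are those of the report.

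The replication level at 37 dpf, 24.4 per 10000, was 17.0 as a mean over wells, 17.7 without *pcna* and 11.1 without erythroid wells. At 7 months, 2.81 became 3.36 with at least 1000 and 2.53 with at least 200 UMIs per well, 2.44 as a mean over wells and 2.22 without *pcna*. Without *pcna* it was 23.9 in erythroid, 4.25 in stromal and 5.71 in macrophage wells. Stromal wells were at 8.003 with 1000 UMIs and 8.21 with clusters, and macrophage wells at 8.44 as a mean over wells. The mitosis level at 37 dpf, 15.9, was 9.53 as a mean over wells, 12.7 without *mki67* and 6.91 without erythroid wells. At 7 months, 0.770 became 1.51 with 1000 UMIs, 0.442 as a mean over wells and 0.161 without wells of 4 or more mitosis UMIs. It was 17.0 in erythroid wells without *mki67*, and 5.86 with 1000 UMIs and 3.86 as a mean over wells in stromal wells. Shares of wells with a replication UMI fell from 61.0%, 17.4% and 14.9% to 37.3%, 4.87% and 7.12% after thinning, and to 49.2%, 4.87% and 3.56% with at least 2 UMIs. Mitosis shares fell from 49.8% and 1.39% to 22.8% and 0.464% after thinning, and to 38.98% at 37 dpf with at least 2 UMIs.

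Adult depth limits these values: 3 UMIs on the second 7-month plate are 36.6 CPM, above the 37 dpf level of several genes. Groups were set after the wells had been seen. The comparisons of cartilage wells with at least 1000 UMIs could not be fitted, since too few wells remained.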
